A study of Saccharomyces cerevisiae with 39 samples.

Results

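Condensin and cohesin are ring-shaped protein complexes that shape chromosomes. The 10 genes described here encode the 5 subunits of condensin (SMC2, SMC4, BRN1, YCS4 and YCG1), the ring of cohesin (SMC1, SMC3 and MCD1) and the Scc2-Scc4 complex (SCC2 and SCC4), which loads cohesin onto DNA. They were chosen by name among the 6420 features of the count table. The reason for the choice was that BRN1 lay lower and SCC4 higher in these same libraries while Abf1 was removed from the nucleus. BRN1 and SCC4 were thereby selected on their values in the tagged strain, and these values are given as a description, without a test. The 8 other genes are called their partners below and were tested. All 10 genes passed the filter on low counts, which kept 5722 features.

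In both complexes a pair of long SMC proteins forms the arms of the ring, and a kleisin subunit closes it. The arms are Smc1 and Smc3 in cohesin and Smc2 and Smc4 in condensin. The kleisin is Mcd1 in cohesin and Brn1 in condensin. Cohesin holds sister chromatids together and forms chromatin loops, while condensin compacts chromosomes for mitosis and is enriched at the ribosomal DNA of budding yeast. Abf1 is an essential DNA binding protein that binds many yeast promoters and helps to keep them free of nucleosomes.

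RNA synthesis was measured by 4tU-seq, in which RNA made during a short pulse of 4-thiouracil (5 mM for 6 min) is biotinylated, pulled out of total RNA and sequenced. There were 39 libraries, and each of the 13 groups had 3 replicates. Both strains are BY4742 yeast of mating type MATalpha with the alleles tor1-1 and fpr1del and the anchor RPL13A-FKBP12-NAT. The tagged strain, called Abf1 here, carries in addition Abf1-FRB-yEGFP-3V5-hphMX4, so that rapamycin ties Abf1 to a ribosomal protein and takes it out of the nucleus. It was sampled after 90 min of the solvent DMSO (0 min) and after 5, 10, 15 and 20 min, after 30, 40, 50 and 60 min and after 75 and 90 min of 7.5 µM rapamycin. The untagged parent (WT) was sampled after 90 min of rapamycin (WT 90 min) and after 90 min of DMSO (WT 0 min). How many clones of the tagged strain were used is not given in the sources used here.

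Total counts lay between 3500982 and 11266408 per library. Counts of the 10 genes lay between 174 (BRN1) and 2322 (SMC4) in any library. FPR1 had 0 counts in every library, which allows up to 3 counts per library. ABF1 itself was at 732 ± 64.9 CPM (counts scaled to the normalised size of the library) in Abf1 and at 367 ± 19.8 CPM in WT at 0 min (SD, n = 3 each). The MATalpha genes MF(ALPHA)1, MF(ALPHA)2 and STE3 averaged 1317, 420.3 and 400.1 CPM in Abf1 at 0 min, and the 5 MATa genes looked at averaged at most 7.07 CPM (STE2). TOR1 averaged 888.5 CPM in Abf1 at 0 min, which says nothing of its point allele. Replicates of one number tended to deviate together in the tagged strain, less clearly so for replicate 2. For SCC2, SMC2 and YCG1 replicate 1 was the highest in 11 of 11 tagged groups. CPM hold shares of a library's RNA, and a shift common to every gene does not show in them. A culture holds cells of all cell cycle stages, so fewer cells at a stage and less RNA per cell cannot be told apart.

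Promoter sequence was looked at first, because Abf1 acts through it. In the 300 bp before each start codon of RefSeq's assembly R64 (sacCer3), 4 of the 10 genes held a match to the Abf1 consensus on either strand, as did 15.5% of all 6001 promoters. They were BRN1, SMC1, SMC2 and SCC2. Over the 13 group means, SMC1 and SMC2 had courses like that of BRN1 (Pearson r = 0.962 and 0.940), while SCC2 did not (r = −0.541). The stretches are shown to set BRN1 beside these partners. Each is written on the strand of the match, 5′ to 3′, with the match in capitals.
BRN1, 174 bp before its start codon, chrII:40637-40666, plus strand: tgatgttgaTCACGCGAAACGgtaaacggc
SMC1, 159 bp before, chrVI:119250-119279, minus strand: acgtgtttaTCATGACAAACGattacaatt
SMC2, 130 bp before, chrVI:220227-220256, plus strand: acacggtaaTCACTATAAACGcgtaaggca
SCC2, 51 bp before, chrIV:821224-821253, minus strand: acaatactcTCACAACAAACGaaaagcctg
Windows of SMC4 and SCC4 held no match, and the same is true of MCD1, SMC3, YCS4 and YCG1. The MluI cell cycle box (MCB, ACGCGT), which is bound by the G1/S factor MBF, was found before SMC1, SMC2, SMC3 and MCD1, 4 of 10 genes, as before 3.48% of all promoters. In SMC2 it shares 3 bases with the Abf1 match. The Abf1 consensus searched for was TCRYNNNNNACG, with R for A or G, Y for C or T and N for any base. A match is a string of letters and was not tested for binding. Sites that differ from the string are missed, and the study's own Abf1 binding sites were not looked up.

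The levels per gene length show how the order of the 10 genes changed with time. At 0 min in Abf1, MCD1 had the highest level, 87.3 ± 6.88 CPM per kb (SD, n = 3 here and below). SMC1 (73.9 ± 2.25), SMC4 (73.0 ± 5.97) and BRN1 (66.8 ± 7.79 CPM per kb) came next and overlapped in their ranges. A lower group held SMC2, SCC2, YCG1 and YCS4, between 37.8 and 42.4 CPM per kb, and SCC4 (30.7 ± 4.09) and SMC3 (30.6 ± 2.37 CPM per kb) came last and overlapped. WT at 0 min had MCD1 first as well, and there SCC4 was last and overlapped with SMC3. At 90 min SCC4 was first, with 78.3 ± 6.17 CPM per kb, and BRN1 was last, with 21.2 ± 4.61 CPM per kb. Replicate ranges of each gene and the next in the order overlapped in 9 of 9 cases at 90 min, against 6 of 9 at 0 min.

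BRN1 (YBL097W, chrII:40831-43095, plus strand), the kleisin of condensin, was low within minutes and stayed low. It had 109.5, 96.4 and 107 CPM at 5 min and 72.9, 74.2 and 73.6 CPM at 10 min, against 167, 132 and 154 CPM at 0 min. By 20 min its replicates had 68.7, 50.1 and 59.7 CPM, and from 30 to 75 min all libraries lay between 38.5 and 70.1 CPM. At 90 min they had 57.05, 36.6 and 50.4 CPM. All 3 replicates lay below every 0 min replicate at each of the 10 times. The log2 fold change against 0 min was −0.54 ± 0.176 (SE) at 5 min and −1.04 ± 0.178 at 10 min. It reached −1.35 ± 0.18 at 20 min and −1.66 ± 0.185 at 90 min. An exponential decay fitted to the 33 tagged libraries had a rate of 0.153 ± 0.0193 per min (SE), a time constant of 6.55 min, and a plateau at 34.95% of the starting level (pseudo-R2 0.913). These values chose the gene and are no test of it.

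SMC4 (YLR086W, chrXII:302243-306499, plus strand), an arm of condensin, fell early as well and was the one partner called at 20 min. It had 187, 132 and 178 CPM at 20 min, against 338, 288 and 306 CPM at 0 min. The replicates at 20 min lay below all of those at 0 min, as they did at each of the other 9 times. All times share the 0 min libraries, and the share of all features that separate in this way was not counted. The log2 fold change of SMC4 was −0.91 ± 0.15 (SE) at 20 min (edgeR quasi-likelihood test, Benjamini-Hochberg adjusted p = 1.78e-05). SMC4 had 178, 118 and 169.9 CPM at 90 min, a log2 fold change of −1.001 ± 0.151 (edgeR adjusted p = 3.00e-06). It was called lower at every time from 10 to 90 min but not at 5 min (log2 fold change −0.34 ± 0.148, edgeR adjusted p = 0.462). The call at 10 min (log2 fold change −0.63, edgeR adjusted p = 0.00435) was lost without any one of the 10 min replicates or without replicate 1 of 0 min (edgeR adjusted p from 0.0107 to 0.029). Without replicate 3 of every group SMC4 was called at 75 and 90 min only, and its calls at the 7 times from 10 to 60 min were lost. At 20 min the log2 fold change was then −0.97 (edgeR adjusted p = 0.012), and the adjusted p at the other 6 times was 0.0118 to 0.263. The same decay equation, fitted to SMC4 after its values were seen, gave a time constant of 7.13 min and a plateau at 51.1% of the starting level.

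Among the 8 partners, 1 was called lower at 20 min, where 8.65% of all features were called lower, and 0 were called higher, where 0.629% were. A call needed an adjusted p under 0.01 and a fold over 1.5. At 90 min 3 of 8 partners were called lower (SMC4, SMC1 and MCD1), where 11.3% of features were, and 0 were called higher, where 6.26% were. Over all 10 times the same 3 partners were called lower at 1 time or more (14% of features) and 0 were called higher (7.57% of features). The median over the partners, on the log2 scale, was 0.01 at 20 min (0.06 over all features tested) and −0.56 at 90 min (0.04 over all features tested). The 10 genes are 1701 to 4482 bp long, and of the 1634 features of that length tested, 13.3% were called lower at 90 min.

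**Figure D1:**
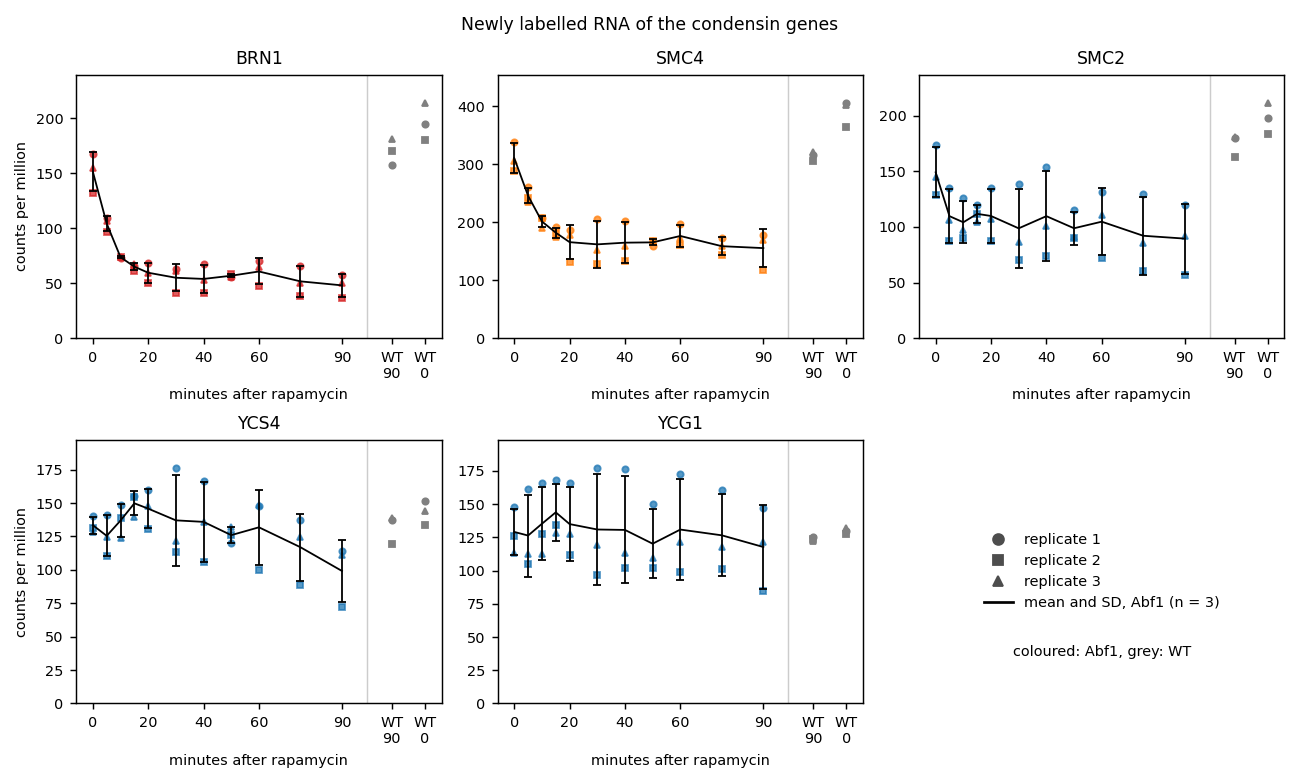
CPM of the 5 condensin genes in each library (y axis) against minutes after rapamycin in the Abf1 strain (x axis), with the mean and SD of 3 replicates as a line, and the WT libraries in grey at the right. All BRN1 and SMC4 libraries from 5 min on lie below those of 0 min, while YCG1 libraries overlap with 0 min at every time.

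The other arm of condensin and its 2 HEAT repeat subunits were not called at any time in the fit without a replicate block. SMC2 (YFR031C, chrVI:216594-220106, minus strand) had 119.8, 57.0 and 91.6 CPM at 90 min, against 173, 129 and 145 CPM at 0 min. Each replicate at 90 min was below the 0 min replicate of its own number, and this held for all 30 pairs of a later library with its own number. The pairs share the same 0 min libraries and are not independent. The spread between replicate numbers was wide, with replicate 1 the highest in 11 of 11 tagged groups, and groups overlapped with 0 min at 6 of 10 times. The log2 fold change of SMC2 at 90 min was −0.74 ± 0.281 and was not called (edgeR adjusted p = 0.0386). With the replicate number as a block (replicate block), it was called lower at 30, 50, 75 and 90 min, with a log2 fold change of −0.77 at 90 min (edgeR adjusted p = 1.55e-04). At 50 min (log2 fold change −0.59, edgeR adjusted p = 0.00271) the replicate numbers did not pair the libraries by the cut-off given under processing. Without replicate 1 of 75 min it was called at 75 min (log2 fold change −1.02, edgeR adjusted p = 0.00904), and without replicate 1 of every group at 90 min too (log2 fold change −0.92, edgeR adjusted p = 0.00608).

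YCS4 (YLR272C) and YCG1 (YDR325W) were not called at any time. YCS4 had 114, 72.5 and 111 CPM at 90 min, against 140.4, 131.5 and 128.4 CPM at 0 min, and these did not overlap. How many of all features separate in this way was not counted. The log2 fold change of YCS4 was 0.13 ± 0.177 at 20 min and −0.43 ± 0.179 at 90 min (edgeR adjusted p = 0.759 and 0.0599). YCG1 had 147, 84.3 and 121.5 CPM at 90 min, against 148, 126 and 113.5 CPM at 0 min, and these overlapped.

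BRN1 was also set against the 4 other condensin genes within each library, which takes out any scaling of the library. Its level per kb over their geometric mean was 0.675, 0.696 and 0.686 at 20 min and 0.655, 0.722 and 0.662 at 90 min, against 1.42, 1.33 and 1.53 at 0 min. The WT ratios were 1.41, 1.64 and 1.61 at 90 min and 1.54, 1.55 and 1.69 at 0 min. Ratios at 20 and at 90 min lay below all ratios at 0 min and in WT. BRN1 was chosen for its fall in the tagged libraries, so the ratios are a description and no test.

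**Figure D2:**
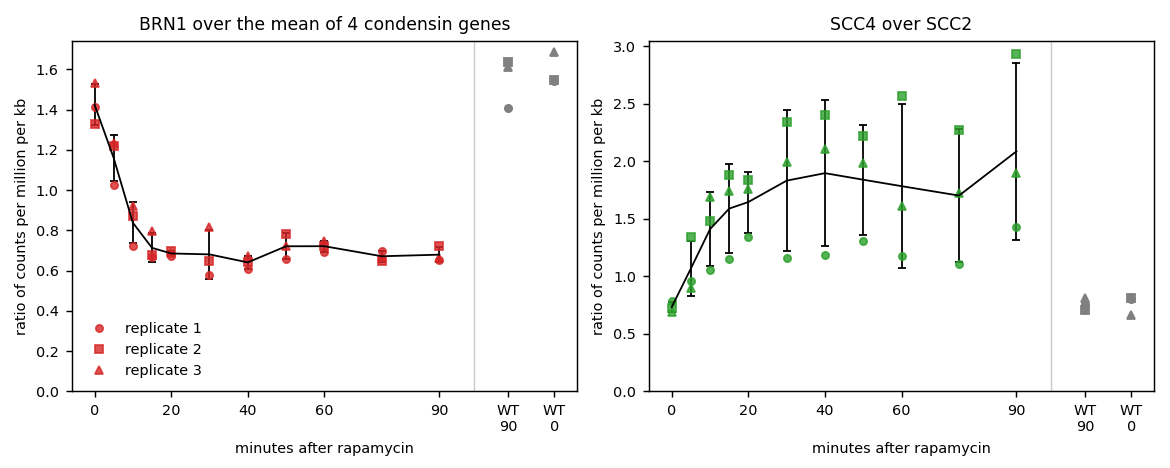
Ratio within each library of BRN1 to the geometric mean of the other 4 condensin genes (left) and of SCC4 to SCC2 (right). Values are from CPM per kb, against minutes after rapamycin in Abf1, with mean and SD as a line and WT libraries in grey. The BRN1 ratio averages 0.680 at 90 min, against 1.43 at 0 min, and the SCC4 ratio 2.09 at 90 min, against 0.734 at 0 min.

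SCC4 (YER147C, chrV:462968-464842, minus strand), the loader subunit that brings cohesin loading to chromatin sites, had the opposite course. It had 82.1, 87.5 and 66.9 CPM at 5 min and 103, 109 and 97.7 CPM at 10 min, against 66.4, 52.5 and 53.9 CPM at 0 min. The lowest library at 5 min was just above the highest at 0 min. The replicates had 129.8, 120.4 and 137 CPM at 20 min and 134.5, 148 and 157.5 CPM at 90 min. All libraries of each of the 10 times lay above all of those at 0 min. The log2 fold change was 0.45 ± 0.101 (SE) at 5 min and 0.84 ± 0.0999 at 10 min. It reached 1.16 ± 0.1 at 20 min and 1.35 ± 0.101 at 90 min. The fitted rise had a rate of 0.103 ± 0.0152 per min (SE), a time constant of 9.71 min, and a plateau at 247% of the starting level (pseudo-R2 0.882). As for BRN1, these values are a description only.

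SCC2 (YDR180W, chrIV:821295-825776, plus strand), the other subunit of the loader, which stimulates the ATPase of cohesin, was not called at any time. It had 225, 120.7 and 198 CPM at 90 min, against 202, 173.5 and 186 CPM at 0 min, and the groups overlapped at all 10 times. The log2 fold change was 0.03 ± 0.271 at 20 min and −0.05 ± 0.273 at 90 min (edgeR adjusted p = 0.974 and 0.913). Its spread was large in the tagged strain, with a median coefficient of variation of 26.1% over the 11 groups, against 3.22% and 7.22% in the WT groups. The ratio of SCC4 to SCC2 per kb was 1.43, 2.94 and 1.90 at 90 min, against 0.785, 0.723 and 0.694 at 0 min, with no overlap. SCC4 was chosen for its rise in the tagged libraries, so this ratio is a description and no test.

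**Figure D3:**
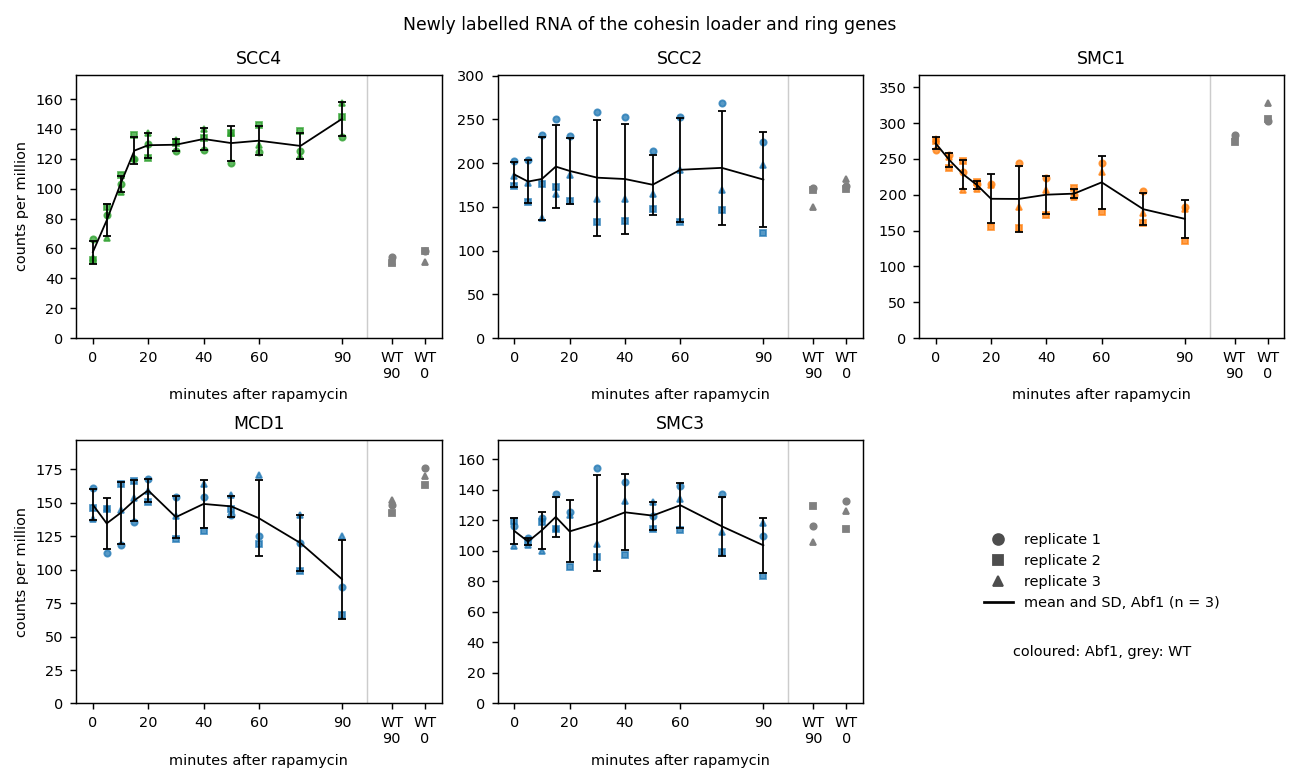
CPM of the 2 loader genes and the 3 cohesin ring genes in each library (y axis) against minutes after rapamycin in the Abf1 strain (x axis), with the mean and SD of 3 replicates as a line and the WT libraries in grey. SCC4 libraries from 5 min on lie above those of 0 min, SMC1 libraries lie below them, and MCD1 libraries separate from 0 min at 90 min.

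The 3 ring genes of cohesin also differed from each other. SMC1 (YFL008W, chrVI:119429-123106, plus strand), one arm, had 215, 155 and 213.5 CPM at 20 min, against 262, 276 and 277.5 CPM at 0 min. All libraries of all 10 times were below those of 0 min. These times share the 0 min libraries, and the share of all features that separate in this way was not counted. SMC1 was not called at 20 min (log2 fold change −0.48 ± 0.14, edgeR adjusted p = 0.0142). It was called at 75 min (log2 fold change −0.60 ± 0.14, edgeR adjusted p = 0.00119) and at 90 min. At 90 min it had 183, 136 and 180.3 CPM, a log2 fold change of −0.71 ± 0.141 (edgeR adjusted p = 0.00017). The call at 75 min was lost without replicate 2 of 75 min (log2 fold change −0.56, edgeR adjusted p = 0.0121). Without replicate 1 of 30 min SMC1 was called at 30 min as well (log2 fold change −0.73, edgeR adjusted p = 0.000413). Without replicate 3 of every group it was called at neither time (edgeR adjusted p = 0.0867 at 75 min and 0.0205 at 90 min).

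MCD1 (YDL003W, chrIV:444683-446383, plus strand), the kleisin of cohesin, whose transcription is known to peak at G1/S, was called only at 90 min. It had 168, 151 and 159 CPM at 20 min, against 161, 146 and 138 CPM at 0 min, and these overlapped (log2 fold change 0.10 ± 0.162, edgeR adjusted p = 0.801). Later it had 120.2, 98.9 and 141 CPM at 75 min and 87.3, 66.4 and 125 CPM at 90 min. The replicates at 90 min were all below those of 0 min, a separation whose share over all features was not counted. The log2 fold change at 90 min was −0.68 ± 0.166 (edgeR adjusted p = 0.00153). Without replicate 2 of 90 min, which was the lowest, it was −0.53 and no longer called (edgeR adjusted p = 0.0189). The call was also lost without replicate 1 or replicate 2 of every group (edgeR adjusted p = 0.0488 and 0.0299). SMC3 (YJL074C, chrX:299157-302849, minus strand), the other arm, was not called at any time. It had 109, 83.3 and 118 CPM at 90 min, against 116, 119.8 and 103 CPM at 0 min, which overlapped (log2 fold change −0.13 ± 0.165, edgeR adjusted p = 0.577).

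An F-test of all 10 times together had an adjusted p under 0.01 for 2 of the 8 partners, SMC4 (edgeR adjusted p = 5.43e-06) and SMC1 (edgeR adjusted p = 0.00481), where 23.7% of features passed. MCD1 and SMC2 did not pass (edgeR adjusted p = 0.0242 and 0.634). With the replicate block 4 partners passed, the 2 others being MCD1 (edgeR adjusted p = 0.0044) and SMC2 (edgeR adjusted p = 0.00726). SMC1 no longer passed without any one of the 0 min replicates or replicate 3 of 75 min, where 1 partner remained (SMC1 edgeR adjusted p from 0.0105 to 0.0174). Without replicate 3 of 90 min MCD1 passed as well (edgeR adjusted p = 0.00129), and without replicate 3 of every group 0 partners passed (SMC4 edgeR adjusted p = 0.0407).

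**Figure D4:**
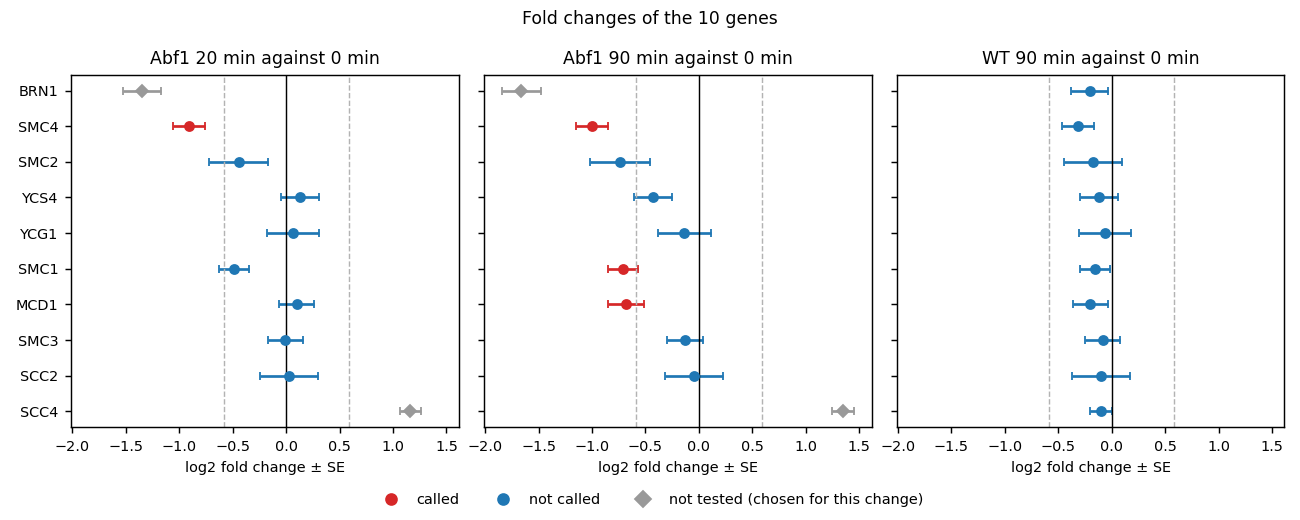
log2 fold change (x axis, with its SE) of each of the 10 genes in Abf1 at 20 min (left) and 90 min (middle) against 0 min, and in WT with rapamycin against WT at 0 min (right). Dashed lines mark the fold of 1.5, and BRN1 at −1.66 and SCC4 at 1.35 are the extremes at 90 min, while all WT values lie between −0.31 and −0.07.

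Rapamycin in WT, which lacks the tag, took 0 of the 10 genes past the thresholds. BRN1 had 158, 171 and 181 CPM in WT at 90 min, against 194, 180.2 and 214 CPM in WT at 0 min, which overlapped (log2 fold change −0.21 ± 0.174, edgeR adjusted p = 0.81). SCC4 had 54.5, 50.0 and 51.1 CPM in WT at 90 min, against 58.4, 58.4 and 50.7 CPM in WT at 0 min (log2 fold change −0.10 ± 0.101, edgeR adjusted p = 0.856). In edgeR 0 of 10 genes were called, where 0% of all features were (504 of 5722 features had an unadjusted p under 0.05), and DESeq2 called 0 of 10 as well. All 10 log2 fold changes were below 0, between −0.31 (SMC4) and −0.07 (YCG1), with a median of −0.14 against 0.00 over all features. Of features in the same range of length, 76.9% were below 0 in this comparison, with a median of −0.09.

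Between the strains at 0 min, before depletion, 0 of 8 partners were called, where 0.524% of features were. DESeq2 called 0 as well, and 758 of 5722 features had an unadjusted p under 0.05. The log2 fold changes of Abf1 over WT were lowest for SMC2 (−0.41 ± 0.274), BRN1 (−0.37 ± 0.174) and SMC4 (−0.33 ± 0.148). For SMC2, BRN1, SMC4, SMC1 and MCD1 all Abf1 libraries at 0 min lay below all WT libraries at 0 min. For MCD1 the gap was small (highest 161.2 CPM in Abf1, lowest 163.1 CPM in WT). The share of all features that separate in this way was not counted. Of features in the same range of length, 61.2% were below 0 in this comparison, with a median of −0.05. SCC4 had nearly the same level in both strains, 57.6 ± 7.67 CPM in Abf1 and 55.8 ± 4.45 CPM in WT. The tag and any other difference between the strains cannot be told apart.

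The interaction, which is the 90 min rapamycin effect in Abf1 minus that in WT, was called for 0 of 8 partners, where 11.6% of features were called. SMC4 was nearest (log2 difference −0.69 ± 0.211, edgeR adjusted p = 0.0181), followed by SMC1 (log2 difference −0.55 ± 0.198, edgeR adjusted p = 0.0478). DESeq2 also called 0, and 1729 of 5722 features had an unadjusted p under 0.05. Same-numbered libraries did not pair in WT by the cut-off given under processing. With the replicate block the SMC4 difference was called (log2 difference −0.70, edgeR adjusted p = 7.59e-04). It was also called without replicate 1 of 90 min (log2 difference −0.84, edgeR adjusted p = 0.00848) or of 30 min (−0.72, edgeR adjusted p = 0.00826), and the MCD1 difference was called without replicate 3 of 90 min (−0.78, edgeR adjusted p = 0.0095). For BRN1 and SCC4 the differences, given as a description, were −1.45 ± 0.252 and 1.45 ± 0.143.

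The features next to BRN1 and SCC4 were looked at, since the counting rule for strand is not given in the sources used here and neighbours could share reads. SCC4 lies head to head with SPT15 (YER148W), the gene of the TATA-binding protein, with 460 bp between the coding sequences. SPT15 had 120.5, 122 and 126.5 CPM at 20 min and 104, 124.9 and 111 CPM at 90 min, against 233, 224 and 223.9 CPM at 0 min. SPT15 fell while SCC4 was higher, with log2 fold changes of −0.88 ± 0.0721 at 20 min and −1.003 ± 0.0729 at 90 min (edgeR adjusted p = 1.61e-11 and 8.22e-13). Neither the SCC4 nor the SPT15 window held an exact match to the Abf1 consensus string, which does not show that Abf1 is absent there. LSM5 (YER146W), for a subunit of the Lsm ring that binds RNA, ends 101 bp from the end of SCC4 on the other strand. LSM5 was called higher at 90 min (24.8, 34.9 and 23.9 CPM, against 12.8, 20.8 and 12.5 CPM at 0 min; log2 fold change 0.86 ± 0.211, edgeR adjusted p = 0.00173) but not at 20 min (log2 fold change 0.27 ± 0.211, edgeR adjusted p = 0.509).

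On the side of BRN1, neither neighbour was called. BNA4 (YBL098W), a gene of NAD synthesis 303 bp upstream on the same strand, was far lower in level, with 4.67, 7.78 and 9.79 CPM at 90 min, against 3.97, 9.23 and 9.09 CPM at 0 min. MRX3 (YBL095W), 181 bp downstream on the same strand, had a log2 fold change of −0.24 ± 0.154 at 90 min (edgeR adjusted p = 0.237).

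Of the 16 neighbours of the partners, named here after their values were seen, ATP16, ARP6 and YSP2 were called lower at 20 and at 90 min. BLM10 and MET10 were called higher at 90 min. Of all features, 8.65% were called lower at 20 min, and 11.3% lower and 6.26% higher at 90 min. ARP6 (YLR085C), a subunit of the SWR1 chromatin remodeller, lies head to head with SMC4 with 253 bp between them. It had 34.7, 30.1 and 34.9 CPM at 20 min and 35.4, 24.4 and 23.0 CPM at 90 min, against 51.6, 54.1 and 58.2 CPM at 0 min, and both genes of the pair fell (ARP6 log2 fold change −0.72 ± 0.175 at 20 min, edgeR adjusted p = 0.00287). The pair SCC4 and SPT15 thus went apart, while the pair SMC4 and ARP6 went down together.

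**Figure D5:**
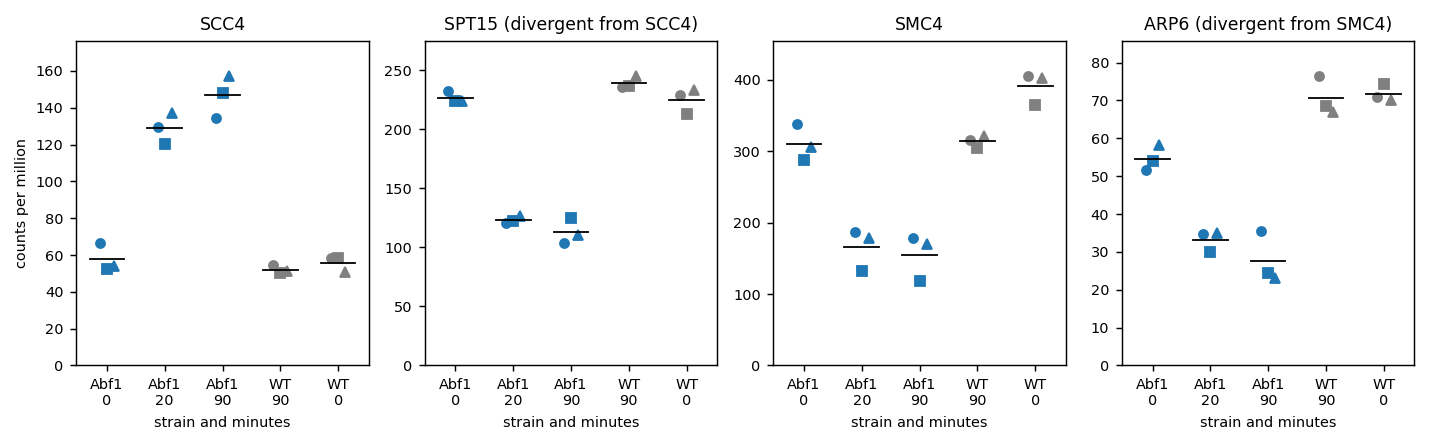
CPM of SCC4, SPT15, SMC4 and ARP6 (y axes) in the 3 replicates of Abf1 at 0, 20 and 90 min and of WT at 90 and 0 min, with the group mean as a bar. SCC4 is higher and its divergent neighbour SPT15 lower at 20 and 90 min than at 0 min, while SMC4 and its divergent neighbour ARP6 are both lower.

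The features most like BRN1 and SCC4 were found by Pearson correlation of log2 CPM over the 13 group means, among 5161 features with a mean of at least 10 CPM. Both features of a pair were measured in the same libraries, and the correlations are a description. SMC4 had rank 3 for BRN1 (r = 0.995), after RGR1 (r = 0.996), a Mediator subunit gene, and IKI3 (r = 0.996), an Elongator subunit gene, and before YPT52 and HMG2 (r = 0.995 each). Their log2 fold changes at 90 min were −0.78 for RGR1, −1.80 for IKI3, −2.88 for YPT52 and −3.38 for HMG2. For the other partners r with BRN1 was 0.962 (SMC1), 0.940 (SMC2), 0.480 (MCD1), 0.305 (YCS4), 0.00312 (SMC3), −0.014 (YCG1) and −0.541 (SCC2). For SCC4 the nearest were YDL144C (r = 0.986), RNP1 (r = 0.971), ATG36 (r = 0.971), NBL1 (r = 0.968) and ECM30 (r = 0.967). NBL1 encodes a subunit of the chromosomal passenger complex, and had a log2 fold change of 1.90 at 90 min. BRN1 and SCC4 had r = −0.988 with each other. Both were chosen for opposite courses in these libraries, so a negative r was given by the choice.

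Other genes of the pathway were taken from lists. Of 9 cohesin regulators, 0 were called at 20 min in edgeR and 3 were called lower at 90 min, where 8.65% and 11.3% of all features were called lower. The list medians were 0.02 at 20 min and −0.28 at 90 min on the log2 scale, beside 0.06 and 0.04 over all features. These were IRR1 (YIL026C), which encodes the Scc3 subunit (log2 fold change −0.98 ± 0.115, edgeR adjusted p = 3.04e-08), PDS5, which keeps cohesin on DNA (−1.04 ± 0.177, edgeR adjusted p = 1.97e-05), and SGO1, which encodes shugoshin (−0.68 ± 0.159, edgeR adjusted p = 0.00117). The level of IRR1 was 73.8 ± 8.80 CPM (SD, n = 3) at 90 min, against 145 ± 8.07 CPM at 0 min. Of 6 condensin co-factors, 2 were called lower at both times, TOF2 and CDC14, and the list median was −0.46 at 90 min. TOF2, a nucleolar gene needed for condensin at the ribosomal DNA, had 51.4 ± 2.76 CPM at 20 min and 29.5 ± 5.16 CPM at 90 min, against 124.5 ± 3.61 CPM at 0 min. CDC14, for the phosphatase of mitotic exit, had 73.9 ± 3.30 CPM at 20 min and 79.6 ± 3.15 CPM at 90 min, against 145.5 ± 12.1 CPM at 0 min. Of the 8 genes of the related Smc5-Smc6 complex, 0 were called at either time and the median log2 fold change was −0.17 at the later time.

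Cell cycle genes were looked at beside the falls of SMC1 and MCD1 at 90 min. At 20 min 0 of 11 G1/S genes, 0 of 7 G2/M genes and 0 of 6 M/G1 genes were called in edgeR, where 8.65% of all features were called lower, with medians of 0.01, 0.13 and 0.11 on the log2 scale, beside 0.06 over all features. At 90 min 2 of 11 G1/S genes (CDC45 and SWI4), 4 of 7 G2/M genes (CLB1, CLB2, BUD4 and HST3) and 1 of 6 M/G1 genes (CTS1) were called lower, where 11.3% of all features were. The list medians were −0.55, −0.64 and −0.42, beside 0.04 over all features, and the counts of the G1/S and M/G1 lists were near the share of all features. The called genes are named after their values were seen. Their part in the fall of SMC1 and MCD1 was not tested.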

How the data were processed

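The authors deposited raw counts per feature. Per their methods and the submitters' processing notes, HISAT2 2.0.5 placed the read pairs on sacCer3, identical molecular identifier combinations were kept once, and reads were counted with featureCounts (Subread 1.6.5) on annotated features extended to published start sites. A second deposited table holds the authors' own log2 fold changes and adjusted p-values for each time and for WT, and was not used.

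Counts were fitted with edgeR 4.0.16 in R 4.3.3 (quasi-likelihood F-test, robust, TMM factors, filterByExpr with a minimum count of 10, 1 coefficient per group, all 39 libraries). The 5722 features kept held 99.99% of counts. A call needed a Benjamini-Hochberg adjusted p under 0.01, over all features tested, and a fold over 1.5. CPM used TMM-adjusted library sizes. SE came from the fold change and its F. DESeq2 1.42.0, other scaling, no filter, separate fits, a replicate block and leaving out replicates were alternatives. The fit was tested on data simulated for 20 min against 0 min. It called 86% of features with a true fold of 0.4 and 50% with 0.6. For true folds of 1.67 and 2.5 it called 54% and 92%. Decay fits used scipy 1.17.1 on counts scaled to the median total. Replicates were biological triplicates per the study's methods.

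Same-numbered libraries deviated together (correlation over 0.1) in 29 of 30 pairs of a later with the 0 min tagged library, the lowest at 0.0476. By this cut-off numbers pair in 9 of 10 comparisons (not 50 min) and neither in WT nor between the strains. At most times replicate 2 correlated more with a 0 min library of another number (at 90 min 0.343, against 0.268 with its own). Own-number correlations were 0.0429, 0.13 and 0.0891 in WT and 0.201, 0.241 and 0.0937 between the strains. Those with other numbers were below 0 there. Levels of different genes are compared per kb of annotated length. Names and coordinates are RefSeq's for R64.

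The members and lists were chosen with earlier results of these data known. The genes named are the members, the nearest features to BRN1 and SCC4, the 5 features most like each, list genes called at 20 or 90 min, ABF1, FPR1 and TOR1, and others where the text says so.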

Additional observations from a re-analysis of the deposited data

How the results depend on the processing

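The members' log2 fold changes at 20 min, 90 min, in WT, between the strains and in the interaction were recomputed under each alternative. Leaving out one replicate number in every group was added after seeing the data. Of 760 such values, 714 were counted as kept, 6 lost a call and 7 gained one. A tested value was kept if its direction and its side of the thresholds stayed the same. An untested value of BRN1 or SCC4 was kept if its shift stayed within a limit that was larger than its SE. The sign changed in 33 tested values, all of SCC2, YCG1 or SMC3, which were not called. The untested SCC4 difference between the strains changed sign too and is not among the 33. It was −0.06517 to 0.1082 without 1 library and −0.04442 to 0.1417 without 1 replicate number in every group. With DESeq2 size factors, DESeq2 or no filter, each count of partners called stayed within 1.5 times. With the replicate block, 4 partners in place of 2 passed the time course test and 1 in place of 0 the interaction. With only the libraries of the groups compared, 1 partner passed the time course test and 2 the interaction, and MCD1 at 90 min was not called (adjusted p = 0.0394). The cause of these changes was not tested. In that fit YCG1 between the strains (0.007964) and SCC2 in the interaction (−0.007931) changed sign.

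Without 1 library, partners called lower were 2 to 4 over all times, 1 at 20 min and 2 to 3 at 90 min, those passing the time course test 1 to 3, and those called in the interaction 0 to 1. Without 1 replicate number in every group, the same counts were 2 to 3, 0 to 1, 2 to 3, 0 to 2 and 0. The fitted rate per min, without 1 replicate number at all times, was 0.1292 to 0.1759 for BRN1 and 0.09475 to 0.1124 for SCC4. Without 1 library, the log2 fold change of SCC2 was −0.1273 to 0.1569 at 20 min, −0.2866 to 0.1404 at 90 min and −0.1792 to 0.2475 in the interaction. That of YCG1 was −0.113 to 0.1837 at 20 min, −0.3844 to 0.02228 at 90 min, −0.3091 to 0.09745 in the interaction and −0.1137 to 0.07349 between the strains. That of SMC3 was −0.1065 to 0.1383 at 20 min and −0.1751 to 0.06475 in the interaction. Without replicate 1 of every group, SCC2 was at −0.09874 and YCG1 at −0.03327 at 20 min, and SCC2 at −0.0618 in the interaction. Without replicate 2 of every group, SMC3 was at 0.1704 at 20 min and 0.02984 at 90 min, SCC2 at 0.1048 and YCG1 at 0.0196 at 90 min, and SMC3 at 0.2465 and YCG1 at 0.09924 in the interaction. Without replicate 3 of every group, YCG1 was at 0.08882 between the strains and SCC2 at −0.1073 in the interaction. BRN1 had as few as 174 counts in a library, and at this depth small changes of low genes would not be detectable.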
